A study of Mus musculus with 24 samples.

Results

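Irf4 (ENSMUSG00000021356), which encodes interferon regulatory factor 4, was followed across every library of an RNA sequencing study of the mouse inguinal fat depot, a subcutaneous white adipose tissue. It was taken as the row of the deposited table with that symbol, 1 gene of 16233, and was chosen by its measured level in these same groups. Its relations to Cd79a and to other genes within groups were set for study with that choice. The tissue came from male C57BL6 mice aged 10 to 11 weeks that ran for 1 hour or spent the hour on an artificial treadmill as a sham. The labels form 4 groups of 6 libraries: sedentary (sham) mice sampled at ZT3, early in the rest phase (ZT3 SED), exercised mice sampled at ZT3 (ZT3 RUN), and the same pair early in the active phase (ZT15 SED and ZT15 RUN), where ZT counts hours from lights on. No group carries a transgene or a drug. The labels give no hour after the bout, although the design text lists several. A library is named by its group and a replicate number that only orders the records, as in ZT3_SED_1. Nothing in the labels says that each library is a separate mouse, so the tests measure spread between libraries, which may be technical.

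IRF4 is a transcription factor with a DNA-binding domain shared by the interferon regulatory factors, and it is best known from lymphocytes, where it directs B cell, plasma cell and T cell differentiation with partners such as PU.1 (Spi1) and BATF. In adipocytes it is induced by fasting, is repressed by insulin through the loss of FOXO1 activity, and promotes the expression of lipases. In thermogenic fat it is induced by cold and cyclic AMP and acts with PGC-1α (Ppargc1a) on Ucp1.

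The sequence before the Irf4 start site is shown as the stretch in which sites of cyclic AMP, FOXO, clock and glucocorticoid signalling were searched. The 250 bases upstream of the RefSeq start, read 5′ to 3′ on the plus strand at chr13:30748983-30749232 (GRCm38.p6, from the RefSeq promoter table), are as follows, with a TATA box in capitals.

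Irf4: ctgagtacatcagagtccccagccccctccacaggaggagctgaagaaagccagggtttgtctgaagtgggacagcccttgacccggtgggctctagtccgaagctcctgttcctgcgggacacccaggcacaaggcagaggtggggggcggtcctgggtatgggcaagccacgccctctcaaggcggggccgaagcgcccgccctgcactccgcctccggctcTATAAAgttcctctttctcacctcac

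The TATA box (TATAAA, searched on both strands) began 26 bases before the start and occurred in 12.4% of 32851 mouse promoter windows of the same length. The window was 63.6% G and C, against a median of 52.4% over all windows. The cyclic AMP response core TGACG, the forkhead site GTAAACA, the E-box CACGTG and the glucocorticoid receptor core AGAACA had 0 matches in it on either strand. These occurred in 17.8%, 3.17%, 6.02% and 16.1% of all windows. A missing match says only that these letters are not in this stretch. In the GENCODE M21 annotation no other gene overlaps Irf4. The build used by the authors is not given in the sources used here.

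Depth in recovered reads ranged from 18.5 to 34.7 M (mega) reads per library, and Irf4 itself had from 914 to 36275 reads, so counting error was small beside the differences between libraries. Adipocyte markers were present throughout: the summed signal of 10 of them was between 13651 and 41165 in every library. The sum of 12 skeletal muscle markers was larger than this in ZT15_SED_1 (42457 against 29852) and ZT15_RUN_6 (46877 against 26887). It was also high in ZT15_RUN_1 (21457), and as low as 26.0 in ZT15_SED_5, so muscle content differed widely between libraries. Signal here is CPM, with TMM factors correcting for library composition. Cd79a, a component of the B cell receptor, was high in ZT3_RUN_4 (99.2), ZT15_SED_5 (54.6) and ZT15_SED_3 (14.1) and at most 1.33 elsewhere. Tsc22d3, a gene induced by glucocorticoids, went against the labels in a pair of ZT3 libraries. It was at 390 in ZT3_SED_1 and at most 189 in the other sedentary libraries at ZT3, and at 127 in ZT3_RUN_1 and at least 299.8 in the other exercised ones. Both were kept under their labels, and results that rest on them are also given without them. In bulk tissue, fewer cells of a type and less RNA per cell cannot be told apart.

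Irf4 was an abundant and very variable gene. In sedentary mice at ZT15 its signal was 59.2 at the lowest, 78.3 at the median and 145 at the highest. In exercised mice at ZT15 the lowest library was at 182, the median was 1107 and the highest was at 1744. All 6 exercised libraries at ZT15 therefore lay above all 6 sedentary ones, the contrast on which the gene was selected.

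At ZT3 both groups were wide. Sedentary libraries were at 33.2, 39.6, 81.9, 95.3, 191 and 492, the last being ZT3_SED_1. Exercised libraries were at 52.2 (ZT3_RUN_1), 94.2, 143, 409, 658 and 788. The ranges overlapped from 52.2 to 492, and the 2 libraries that went against their labels in Tsc22d3 were the highest of the sedentary and the lowest of the exercised libraries in Irf4 as well.

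**Figure D1:**
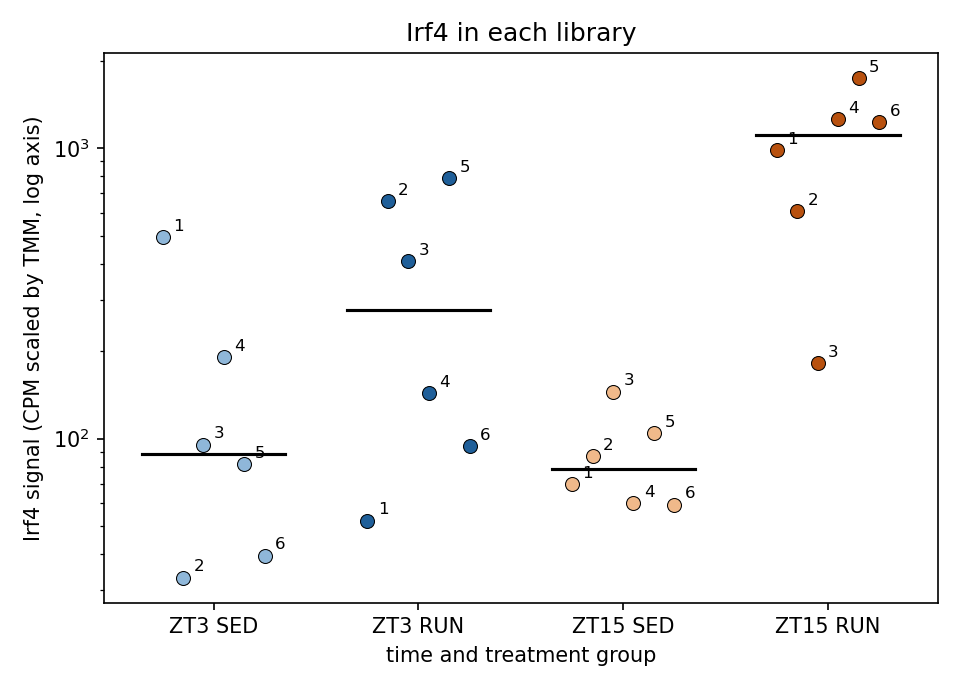
Irf4 signal (CPM scaled by TMM, log axis) in each of the 24 libraries by time and treatment; points are libraries with their replicate number and lines are group medians. The exercised libraries at ZT15 lie between 182 and 1744, above the sedentary ones at ZT15 (59.2 to 145), while the ranges of the ZT3 groups overlap.

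By mean signal the order of the groups was ZT15 SED (87.5 ± 33.1), ZT3 SED (156 ± 174), ZT3 RUN (357 ± 312) and ZT15 RUN (1001 ± 547; SD, n = 6 each). No group was separated from its neighbour in this order, since their libraries overlapped in each case. The highest library exceeded the lowest by 14.8-fold in ZT3 SED, 15.1-fold in ZT3 RUN, 9.59-fold in ZT15 RUN and 2.45-fold in ZT15 SED. The spread within groups, an SD of 1.25 on the log2 scale, was larger than that of 99.4% of the 8116 genes above the median level, whose median SD was 0.20.

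The differences between groups, on the log2(signal + 1) scale from a limma model over all genes, are given as a description where the gene was chosen for them. Irf4 differed by 3.28 ± 0.68 (SE) between exercised and sedentary mice at ZT15, or 9.72-fold (95% interval 1.87 to 4.69 on the log2 scale), the largest difference of the 16233 genes. ZT15 exceeded ZT3 by 1.81 ± 0.68 among exercised mice. The difference between times among sedentary mice was -0.26 ± 0.68, and it was 0.19 without ZT3_SED_1 and -0.83 with edgeR on the recovered reads. The response at ZT15 exceeded that at ZT3 by 2.08 ± 0.96, or by 1.20 without ZT3_SED_1 and ZT3_RUN_1.

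The difference with exercise at ZT3 uses none of the ZT15 libraries and was tested. The spread in limma's SE, interval and p came from all 24 libraries, however. The ZT3 groups were also among those whose Irf4 level was known when the gene was chosen. Irf4 was 1.20 ± 0.68 higher in the exercised mice (95% interval -0.21 to 2.61), which did not pass limma's test (adjusted p = 0.989 over all genes). An exact two-sided permutation test over the 924 splits of these 12 libraries gave p = 0.197. Of all genes, 0% (0 of 16233) passed in this comparison, and 368 had an unadjusted p under 0.05. Without ZT3_SED_1 and ZT3_RUN_1 the difference was 2.09 and still missed the threshold (limma adjusted p = 0.382), and 19 genes passed.

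Title numbers run in stretches of 8 that each hold 2 libraries of every group, and the labels do not say what they mean. Within these stretches the Irf4 difference at ZT15 was 4.20, 3.29 and 2.35 on the log2 scale. At ZT3 it was 2.54, -0.87 and 1.93. The negative value came from the stretch that holds ZT3_SED_1 and ZT3_RUN_1.

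The 3 libraries highest in Cd79a, ZT3_RUN_4, ZT15_SED_5 and ZT15_SED_3, had Irf4 signals of 143, 104 and 145, all below the lowest exercised library at ZT15 (182). Within ZT15 SED, ZT15_SED_3 and ZT15_SED_5 were the highest in Irf4 as well, above 59.2 to 86.8 in the other 4, and r between Irf4 and Cd79a in that group was 0.76 (rho 0.77, exact permutation p = 0.064, adjusted over 80 relations 0.292). Among the other 21 libraries, deviations from group means gave a Pearson r of -0.13 between Irf4 and Cd79a (permutation p = 0.565, adjusted over 20 relations 0.650) and a Spearman rho of -0.08 (p = 0.734, adjusted 0.740). Without the 2 libraries farthest from the median r was 0.006. Cd79a in these 21 libraries was only 0.24 to 1.33, and 1 read was worth 0.06 in the lowest (ZT15_RUN_5). These r values therefore rest on few Cd79a reads, and a B cell share of Irf4 was not tested. Without the 3 libraries high in Cd79a the Irf4 difference at ZT15 was 3.56.

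Markers of other cells that could hold Irf4 gave no call against it. The 20 lymphocyte markers had a median r with Irf4 within groups of -0.001 (10 of 20 above 0), 0 passed the test of variation with Irf4 described below, and all 20 had a difference below 0 for exercise at ZT15, where Irf4 was higher (median -1.58, 0 passed). Their summed signal was 71.9 to 190 in ZT15 RUN and 111 to 2119 in ZT15 SED. Within ZT15 SED it was 2119 in ZT15_SED_5, 672 in ZT15_SED_3 and at most 152 in the rest. All 20 signs share these libraries and are not separate observations. For 8 of 10 listed plasma cell genes the median r was -0.02 with sums of 304 to 464 and 250 to 423 in these groups, for 19 dendritic cell and macrophage genes it was -0.12 with sums of 583 to 2331 and 587 to 1836, and for 5 melanocyte genes, another cell type that uses IRF4, it was 0.19 with sums of 33.7 to 48.5 and 22.2 to 50.8. Skeletal muscle genes were above 0 in 12 of 12 (median r 0.19, 0 passed), with sums of 174 to 46877 in ZT15 RUN and 26.0 to 42457 in ZT15 SED. With Cd79a and the muscle gene Myh4 in the model the Irf4 difference at ZT15 was 3.23.

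Irf4 was set beside 7 other Irf genes, and none of these passed for exercise at ZT15. Per kilobase of merged exons, which allows genes to be compared, Irf4 had the highest mean signal of the 8 in each group, from 17.9 ± 6.75 in ZT15 SED to 204 ± 112 in ZT15 RUN (SD, n = 6). It ranked first in 16 of 24 libraries, among them all 6 of ZT15 RUN. Irf1, induced by interferon gamma, was at 15.9 ± 5.52 and 11.7 ± 1.98 per kilobase in these groups, and Irf3, a sensor-activated factor of most cells, was at 13.6 ± 1.62 and 12.8 ± 0.70. By mean, Irf1 was next after Irf4 in both sedentary groups, Irf7 in ZT3 RUN and Irf3 in ZT15 RUN. Irf2, Irf5 and Irf8, a factor of myeloid and B cells, were lower, with 4.73 ± 0.86, 7.07 ± 2.16 and 2.30 ± 0.35 in ZT15 RUN.

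**Figure D2:**
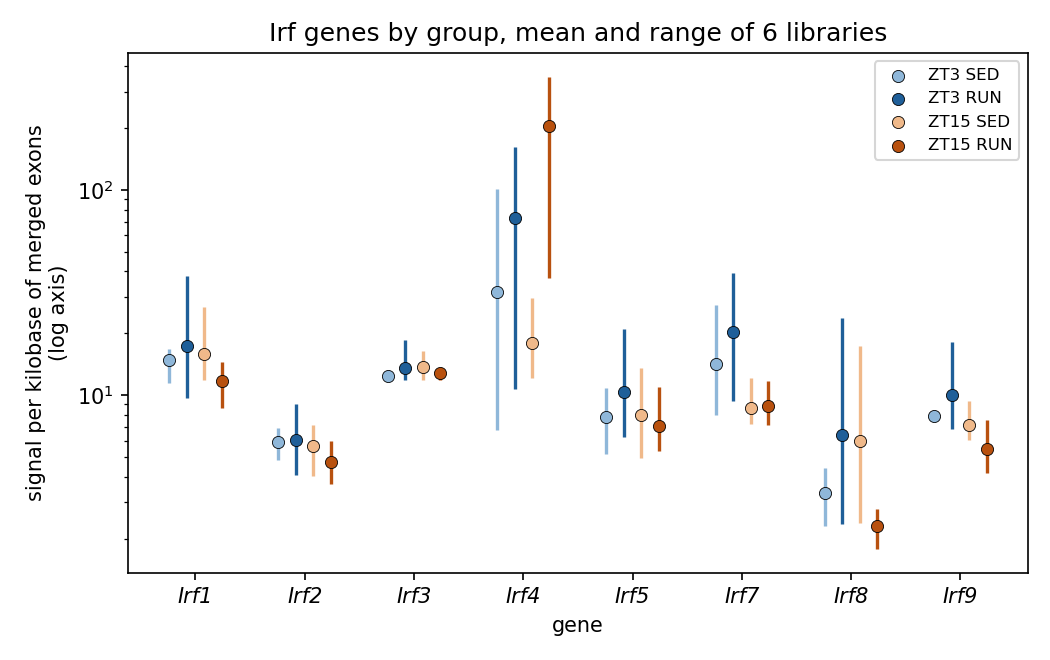
Signal per kilobase of merged exons (log axis) of 8 Irf genes in each group; points are means and lines run from the lowest to the highest of 6 libraries. Irf4 has the highest mean in every group, and in ZT15 RUN (204) it is well above Irf3 (12.8) and Irf1 (11.7).

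At ZT15, 0 of the 7 other Irf genes passed for exercise (background 0.641% of all genes), 1 of 7 was above 0, and the median log2 difference was -0.24 against 0.003 for all genes. At ZT3, 6 of 7 were above 0 (median 0.24) and 0 passed. Between ZT15 and ZT3 in exercised mice, where 4.19% of all genes were called and 1.63% were lower, Irf9 and Irf7, which carry interferon signals, passed as lower. Irf9 was at 36.8, 48.8 and 97.5 (lowest, median and highest) in ZT3 RUN and at 22.5, 27.2 and 40.6 in ZT15 RUN, and fell by 0.79 on the log2 scale (SE 0.17, limma adjusted p = 0.010). Irf7 was at 35.4, 72.1 and 148 in ZT3 RUN and at 27.1, 31.6 and 44.1 in ZT15 RUN. It fell by 1.01 (SE 0.29, adjusted p = 0.048), and that call held in 7 of 24 fits without a single library. Both genes overlapped between the groups.

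All 17 interferon-stimulated genes, which include Irf7 and Irf9, had a difference below 0 between ZT15 and ZT3 in exercised mice (median -0.995 against -0.006 for all genes). Of these, 14 passed as lower, against 1.63% of all genes. Ifi44 fell by 1.12, Oas1a, a sensor of double-stranded RNA, by 1.10, Isg15, a ubiquitin-like protein, by 1.08 and Usp18, which removes Isg15, by 1.07 (limma adjusted p = 0.003, 0.006, 0.005 and 0.005). Irf4 moved the other way in the same comparison, higher by 1.81. In sedentary mice the median was -0.39 with Ifi44 the 1 gene past the threshold, a call that held in 15 of 24 fits without a single library (1.18% of all genes were called in this comparison, 0.561% as lower). For exercise at ZT15 0 of the 17 passed, and within groups their median r with Irf4 was -0.05 (5 of 17 above 0).

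The next question was which genes rise and fall with Irf4 between libraries of the same group. The model held a mean for each group and a slope on the log2 level of Irf4. With the labels as given, the differences between groups for which Irf4 was chosen do not enter it. Relations within groups were part of that choice, however, with earlier results known. The slopes and the permutation tests of r are therefore not independent of the choice. If the labels of ZT3_SED_1 and ZT3_RUN_1 were exchanged, part of the difference at ZT3 would enter, which was not tested. All libraries share the tissue, the protocol and the scaling. Of 16232 genes, 116 had a slope past the threshold (0.715%), 99 with positive (0.61%) and 17 with negative slopes (0.105%). Of the 99, 59 had a correlation above 0 in each of the 4 groups, and of the 17, 15 had one below 0 in each. This count depended on few libraries. It was 11 without ZT3_SED_1 and ZT3_RUN_1, all of them among the 116, and fell to 28, 37, 47 or 49 without ZT3_SED_1, ZT3_RUN_1, ZT15_RUN_3 or ZT3_RUN_5 alone. It was 67 without ZT15_RUN_5 and 183 without ZT3_RUN_4.

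Vmp1, which acts in autophagy and in lipid export from the endoplasmic reticulum, had an r with Irf4 within groups of 0.88 (Spearman rho 0.85). Its signal was 81.8, 101 and 156 (lowest, median and highest) in ZT3 SED and 74.9, 128 and 169 in ZT3 RUN. It was 83.7, 101 and 112 in ZT15 SED and 115, 162 and 233 in ZT15 RUN. ZT3_SED_1 was the highest sedentary library at ZT3 and ZT3_RUN_1 the lowest exercised one, as for Irf4, and ZT15_RUN_3 and ZT15_RUN_5 were the lowest and highest of ZT15 RUN in both genes. Vmp1 rose by 0.25 ± 0.03 (SE) on the log2 scale for each doubling of Irf4 (limma adjusted p = 2.412e-04). This call held in all 24 fits without a single library and in 8 of 9 other settings, the exception being the block of neighbouring title numbers (adjusted p = 0.203).

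**Figure D3:**
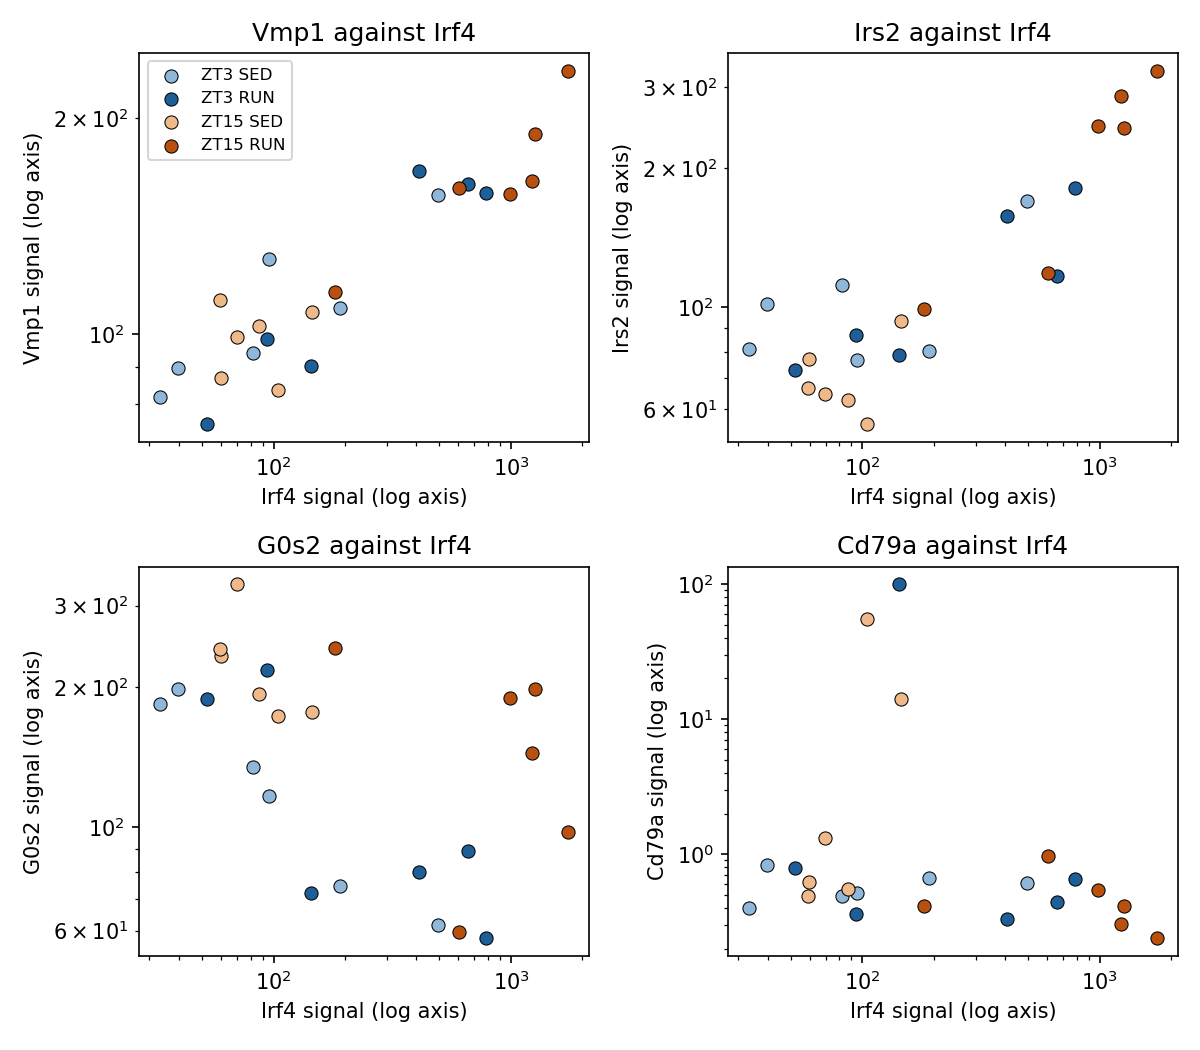
Signal of Vmp1, Irs2, G0s2 and Cd79a against Irf4 signal in the 24 libraries (both axes log), coloured by group. Vmp1 follows Irf4 in ZT15 RUN (r = 0.91) and hardly in ZT15 SED (r = 0.06), Irs2 has a pooled r of 0.76, G0s2 runs opposite to it in ZT3 SED (r = -0.98), and the 3 libraries high in Cd79a have Irf4 between 104 and 145, with those of ZT15 SED the highest of their group.

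Vmp1 and 8 other named genes above the median level had r between 0.84 and 0.88. The others were Sav1 (an adaptor of Hippo signalling), Mbd1 (a reader of methylated DNA), Ranbp9 (a scaffold protein), Apold1 (an early response gene of vessels), Rgs2 (an inhibitor of G protein signalling), Arrdc3 (an arrestin-like protein), Crem (a transcription factor induced by cyclic AMP) and Picalm (clathrin assembly). Per doubling of Irf4 they rose by 0.18 (Picalm) to 0.57 (Rgs2), with adjusted p from 2.412e-04 to 0.002. They followed Irf4 in 3 of the groups. In ZT15 SED, where Irf4 itself varied least, their r was 0.06 for Vmp1, 0.44 for Mbd1 and -0.56 for Crem. Whether r differs between groups was not tested.

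Without ZT3_SED_1 and ZT3_RUN_1 the calls of Vmp1, Sav1, Mbd1 and Rgs2 held and those of Ranbp9, Apold1, Arrdc3, Crem and Picalm were lost, with r from 0.74 to 0.88 over all 9. With neighbouring title numbers as a block, 0 of the 9 calls held. Sav1 lies across from the pseudogenes Gm19221 (r = 0.94) and Gm3086 (r = 0.86), which overlap it on the other strand. These were picked after their values were seen, and reads of the 3 cannot be told apart because the strand setting of the counting is not given.

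Several of these genes also differed with exercise at ZT15, where 0.481% of all genes were called higher. Apold1 was higher by 1.97 ± 0.34, Crem by 1.21 ± 0.22, Sav1 by 1.09 ± 0.19 and Picalm by 0.79 ± 0.15 (limma adjusted p = 0.012, 0.017, 0.012 and 0.018). With neighbouring title numbers as a block the calls of Crem, Sav1 and Picalm were lost (adjusted p = 0.052, 0.057 and 0.092). Those of Crem and Picalm were also lost without the 3 libraries high in Cd79a (both 0.061) and without ZT15_RUN_4 or ZT15_RUN_5 (0.051 to 0.070), and that of Picalm with quantile normalization (0.069) and without ZT15_SED_6 (0.052). Rgs2 (1.69 ± 0.46), Arrdc3 (1.62 ± 0.44), Vmp1 (0.75 ± 0.20), Mbd1 (0.73 ± 0.25) and Ranbp9 (0.68 ± 0.21) did not pass (adjusted p = 0.088, 0.087, 0.078, 0.185 and 0.125). At ZT3 0 of these 9 passed, with differences from 0.11 for Rgs2 to 0.78 for Arrdc3. Promoter windows were found for 7 of these 9 genes. The cyclic AMP core TGACG occurred in 5 of these (Vmp1, Apold1, Rgs2, Arrdc3 and Picalm), against 19.8% of 27025 genes. The E-box, the glucocorticoid core and the TATA box each occurred in 1 of the 7 (6.86%, 18.2% and 14.3% of genes). The forkhead site occurred in 0 (3.54%). The 7 genes were picked by their correlation in these data, and whether any site is enriched among them was not tested.

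**Figure D4:**
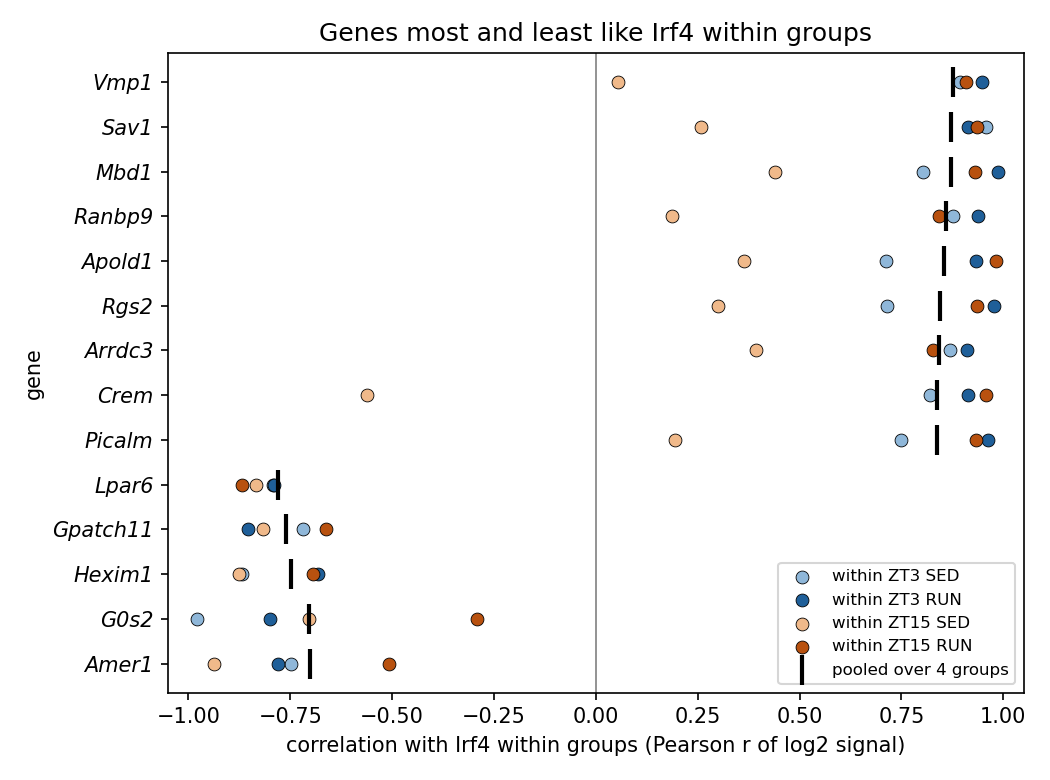
Correlation with Irf4 (Pearson r of log2 signal) of 9 of the most and the 5 least like named genes above the median level, pooled over groups (bars) and within each group of 6 libraries (points). In ZT15 SED Crem is at -0.56 and Vmp1 at 0.06, below their pooled values (0.84 and 0.88).

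Among named genes above the median level, those that ran most opposite to Irf4 were Lpar6 (a lysophosphatidic acid receptor, r = -0.78), Gpatch11 (a G-patch protein, -0.76), Hexim1 (an inhibitor of transcription elongation, -0.75), G0s2 (-0.70) and Amer1 (a regulator of Wnt signalling, -0.70). G0s2 encodes the inhibitor of adipose triglyceride lipase. Its signal in ZT3 SED was 61.6 in ZT3_SED_1, which was highest in Irf4, and 198 and 184 in ZT3_SED_6 and ZT3_SED_2, which were lowest. Within groups its r was -0.98 in ZT3 SED, -0.80 in ZT3 RUN, -0.71 in ZT15 SED and -0.29 in ZT15 RUN, and it fell by 0.37 per doubling of Irf4 (SE 0.08, limma adjusted p = 0.033). Without ZT3_SED_1 and ZT3_RUN_1 the calls of all 5 were lost, with r of -0.55 to -0.65.

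A set of 20 genes of hormone response, lipid use, thermogenesis and other cells was compared with Irf4 one by one. Of these, 7 passed a permutation test of r within groups, adjusted over the 20 relations, and 4 of these also had a slope past the threshold over all genes. Nr4a3, an orphan nuclear receptor of the early response, had r = 0.78 (rho 0.71, permutation p = 2.600e-04 and 0.001, adjusted 0.002 and 0.012, slope adjusted p = 0.006). Irs2, which carries the insulin signal, had r = 0.76 (rho 0.72, permutation p = 2.400e-04 and 0.001, adjusted 0.002 and 0.012, slope adjusted p = 0.011), and the clock gene Per1 had r = 0.76 (rho 0.67, permutation p = 3.700e-04 and 0.002, adjusted 0.002 and 0.015, slope adjusted p = 0.011). Without the 2 libraries of most extreme Irf4 (ZT3_SED_1 and ZT15_RUN_3) their r was 0.63, 0.62 and 0.66.

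The other 4 were glucocorticoid and early response genes and Pdk4. Fkbp5, a cochaperone of steroid receptors, had r = 0.69 and Tsc22d3 r = 0.64 (permutation p = 0.002 and 0.003, both adjusted 0.012). Pdk4, which restrains glucose oxidation, had r = 0.57 and Nr4a1 r = 0.54 (permutation p = 0.008 and 0.011, adjusted 0.026 and 0.032). Their rho of 0.49 to 0.58 did not pass (adjusted 0.059 to 0.062). Fkbp5 passed the slope test over all genes (adjusted p = 0.043), while Tsc22d3, Pdk4 and Nr4a1 did not (0.080, 0.194 and 0.238).

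The relations of these 7 genes rested on few libraries. Without ZT3_SED_1 and ZT3_RUN_1 the count was 0 of 20, and without either of them alone it was 3. With title number blocks it was 8 for runs of 8 and 10 for neighbouring numbers. Removing the means of neighbouring pairs leaves fewer independent values, however. Nr4a3 was at 35.2 in ZT3_SED_1 and at most 8.43 in the other sedentary libraries at ZT3, while Irs2 was at 170 there and had a median of 91.2 in that group. Within single groups of 6, 0 of 80 exact permutation tests passed after adjustment. The smallest p that the 720 pairings of a group allow is 0.00139, which for a single relation adjusts to 0.111, so these tests could hardly give a call. The lowest p were those of Nr4a1 and Nr4a3 in ZT3 RUN (r = 0.94 and 0.95, both exact permutation p = 0.003).

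Ppargc1a, Foxo1, the lipases, the lipogenic enzymes and Adipoq had no call with Irf4 over the 4 groups. Of the same 20, Ppargc1a had r = 0.41, Foxo1 0.47, the lipases Lipe 0.22 and Pnpla2 0.18, the lipogenic enzymes Fasn -0.22 and Scd1 -0.20, and Adipoq 0.03, and none of these passed (permutation p adjusted over 20 relations 0.105 to 0.901). In ZT15 RUN alone, Lipe and Pnpla2 had r of 0.83 and 0.82 (rho 0.89 for both, exact permutation p = 0.017 and 0.014, both adjusted 0.176 over 80 relations), against -0.06 and -0.23 in ZT3 SED, and a difference between groups was not tested. Prdm16, a regulator of beige fat, Spi1, the partner of IRF4 in B cells, Mstn (myostatin) and Myh4 had r of -0.12, -0.17, 0.11 and 0.17 over the 4 groups and did not pass either. In ZT15 SED alone, Prdm16 had r = -0.88 and Spi1 0.84 (exact permutation p = 0.022 and 0.044, adjusted over 80 relations 0.176 and 0.237). In ZT15 RUN they had r of 0.39 and -0.74 (exact permutation p = 0.372 and 0.069, adjusted 0.786 and 0.292). Ucp1 was above 100 in ZT15_SED_1 (208), ZT15_RUN_1 (532) and ZT15_RUN_6 (526). In the other 21 libraries its r with Irf4 was -0.36 (permutation p = 0.120, adjusted 0.240).

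Of 18 genes of insulin signalling and FOXO action, 1 passed for exercise at ZT15, Irs2 (0.641% of all genes were called, 0.481% as higher), and 14 were above 0 (median 0.19). Irs2 had a signal of 55.7, 65.8 and 93.5 (lowest, median and highest) in ZT15 SED and 99.04, 246 and 326 in ZT15 RUN, so the groups did not overlap, and it was higher by 1.53 ± 0.28 (limma adjusted p = 0.017). This call was lost with neighbouring title numbers as a block (adjusted p = 0.070), without the 3 libraries high in Cd79a (0.052) and without ZT15_RUN_4 or ZT15_RUN_5 (both 0.051). At ZT3 the ranges were 76.7 to 170 and 72.9 to 181. Between ZT15 and ZT3 in exercised mice, where 2.56% of all genes were called higher, 3 of the 18 passed as higher: Pdk4 (1.68 ± 0.34), Tsc22d3 (0.92 ± 0.24) and Foxo1 (0.67 ± 0.17; adjusted p = 0.006, 0.035 and 0.030). The call of Pdk4 held in every alternative run, while those of Tsc22d3 and Foxo1 each held in 18 of 24 fits without a single library and were lost with quantile normalization, and further with edgeR (Tsc22d3) or without ZT3_SED_1 and ZT3_RUN_1 (Foxo1). The median r of the 18 with Irf4 was 0.27 against -0.01 for all genes, and Irs2 was the 1 member with a slope past the threshold.

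Of 19 lipolysis genes, 17 were above 0 for exercise at ZT15 (median 0.19) and 0 of 19 at ZT3 (median -0.17), with 0 past the threshold at either time. Of all genes, 50.7% and 51.8% were above 0. The 10 adipocyte markers had the same signs, with 8 above 0 at ZT15 (median 0.14) and 1 at ZT3 (median -0.13). Their sum was lowest in ZT3_RUN_4 (13651) and ZT15_SED_5 (18526), 2 libraries high in Cd79a. The part of fat content in these signs was not tested. Within groups G0s2 fell with Irf4 and the other 18 had no call (median r 0.09, 13 of 19 above 0). Pde3b, which breaks down cyclic AMP under insulin, was higher at ZT15 than at ZT3 in exercised mice (0.64 ± 0.16, adjusted p = 0.030), a call lost without ZT3_SED_1 and ZT3_RUN_1 and in 5 of 24 fits without a single library.

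Of 17 lipogenesis genes 0 passed for exercise at ZT15 (4 above 0, median -0.03) and 3 of 17 had r above 0 with Irf4 (median -0.23, 0 passed). Of 17 thermogenic genes 0 passed (14 above 0, median 0.21), and 4 of 17 had r above 0 (median -0.04). Among 9 partners of IRF4 on DNA 0 passed in any comparison. Junb, a subunit of AP-1, and Ppargc1a each differed by 1.37 with exercise at ZT15 (adjusted p = 0.107 and 0.212). Spib, a relative of PU.1 in B cells, differed by -1.67, beside the Cd79a values given above.

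**Figure D5:**
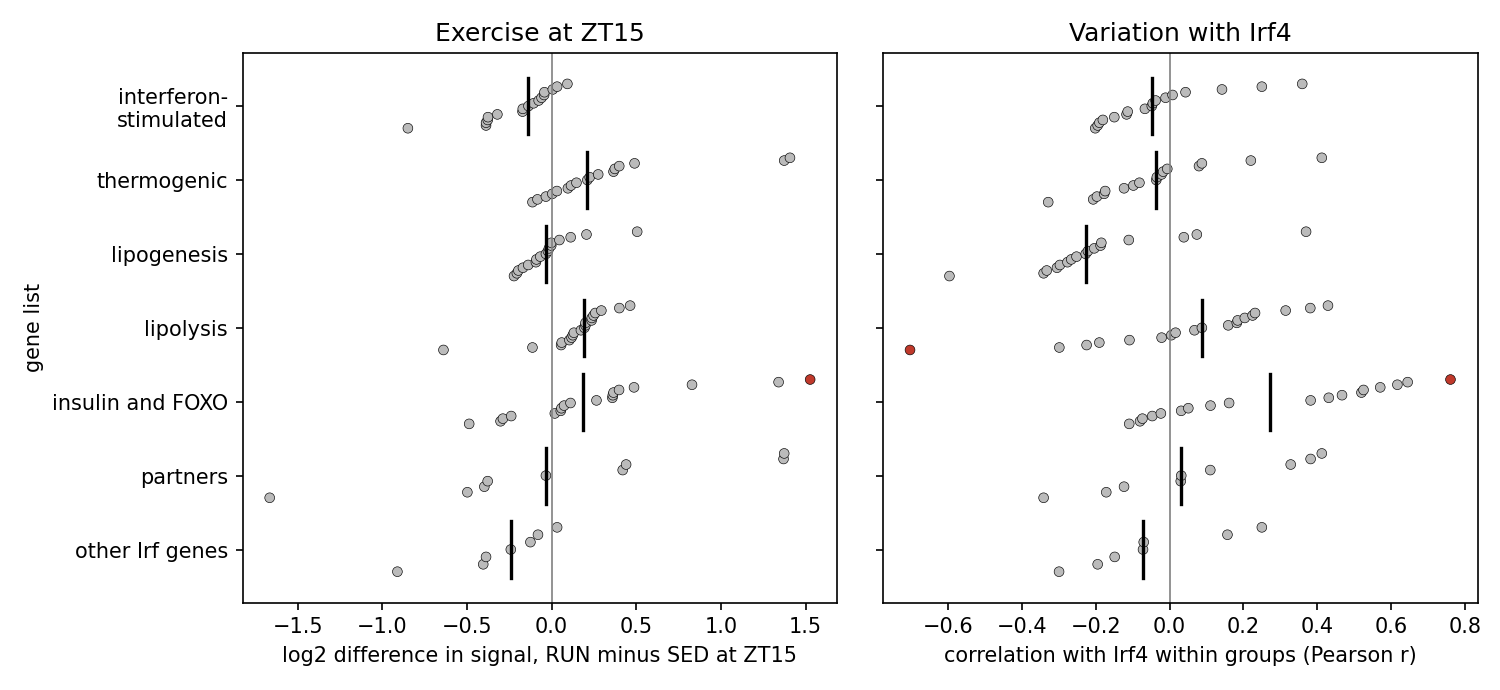
Log2 difference in signal between RUN and SED at ZT15 (left) and correlation with Irf4 within groups (right) for the genes of 7 lists; red points passed the test over all genes, grey points did not, and bars are list medians. Irs2 is the 1 gene past the threshold on the left, and on the right Irs2 (0.76) lies at the high end and G0s2 (-0.70) at the low end.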

How the data were processed

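RNA was sequenced from 24 libraries of inguinal fat after removal of ribosomal RNA, with a stranded kit, per the labels' protocols. The submitters' processing notes name limma 3.48.3, featureCounts, STAR and Subread 1.6.2, and no source used here gives the build, annotation or strand setting. The deposited signal, made by the authors, was a whole multiple of 1 step per library for 100% of values (tolerance 0.01 read), and the steps matched edgeR's TMM scaling, so reads were recovered (18.5 to 34.7 M, mega reads, per library). Normalized values were tested, as planned for such units: limma 3.58.1 in R 4.3.3 with an intensity trend on log2(signal + 1), which understates changes of low genes, over all 24 libraries and 16233 genes with Benjamini-Hochberg adjustment at 0.05. The slope model added the Irf4 log2 level. Permutations (100000) stayed within groups. Merged exon lengths came from GENCODE M21. All 16233 identifiers were found there. Among 60 pairs of libraries within groups chi-square per degree of freedom was at least 23.3, so none was a duplicate within sampling noise.

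Irf4, the lists, the tests and the libraries left out were chosen with earlier results of these data known. Named genes are the Irf genes, a set of 20, list members past the threshold (up to 4 of smallest p per comparison) or the 2 most abundant, and the 10 genes most and 5 least correlated with Irf4 above the median level. Some genes that this rule names are not reported here. Junb and Spib were named after their values were seen. The tests recovered known changes in simulated data, which had steeper slopes on Irf4 than those reported here and no outlying libraries. Recovery under the conditions of these data was not tested. Alternatives were quantile normalization, a pseudocount of 0.1, leaving out the lowest 25% of genes, edgeR 4.0.16 (quasi-likelihood) on recovered reads, title number blocks, Cd79a and Myh4 as covariates, and leaving out libraries.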

Additional observations from a re-analysis of the deposited data

Results flagged for a closer look

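Of 40 sets of 6 libraries examined (10 genes in 4 groups), 11 held a library whose gap to its nearest neighbour was large for the range of its group. Chance would flag about 1 in 20 such groups if the values were normally distributed. The gaps were taken on unlogged signal, where high values stand out more, so this rate may be too low here. In ZT3_SED_1, Irf4 was at 492 (next highest 191), Nr4a3 at 35.2 (8.43), Tsc22d3 at 390 (189) and Irf7 at 104 (51.8), so 4 of the 11 lay in this library. In ZT3_RUN_1, Tsc22d3 was low, at 127 against 299.8 for the next. The part of an exchange of labels in these values was not tested.

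Cd79a was at 99.2 in ZT3_RUN_4 (next 0.79) and at 54.6 in ZT15_SED_5 (next 14.1), and Irf9 was highest in the same libraries, at 97.5 (next 50.6) and 50.3 (next 39.0). In ZT15_SED_1, Irf7 was at 45.9 (next 33.5) and Ucp1 at 208 (next 73.8), while its Irf4 of 69.9 was within the range of its group.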

How the results depend on the processing

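In all settings run, the Irf4 difference with exercise at ZT15 was above 0, at 3.06 to 3.71 without any 1 library. Its difference at ZT3 was 0.85 to 1.66, its interaction 1.62 to 2.51, and its difference between times 1.39 to 2.25 in RUN and -0.58 to 0.19 in SED. The replicate block of runs of 8 title numbers gave 103 genes for exercise at ZT15, 118 genes that vary with Irf4 and 287 genes between times in SED (191 without the block). A block of neighbouring title numbers gave 19 genes at ZT15 and 2 that vary with Irf4, and its time contrasts could not be fitted because each pair lies within a time. Quantile normalization gave 426 genes between times in RUN (680 as reported) and 67 that vary with Irf4. Cd79a and Myh4 as covariates gave 534 genes between times in SED and 366 that vary with Irf4. Without the 3 libraries high in Cd79a these were 22 at ZT15 and 265 with Irf4, 115 of them among the 116 reported. Without ZT3_SED_1 and ZT3_RUN_1 there were 199 genes at ZT15, 19 at ZT3, 434 between times in RUN, 11 with Irf4 and 0 of the set of 20. Without any 1 library the counts were 16 to 293 at ZT15, 0 to 0 at ZT3 and for the interaction, 130 to 388 between times in SED, 330 to 1004 in RUN, 28 to 183 with Irf4 and 3 to 8 of the set of 20. Calls of single named genes held in 279 of 345 fits with another setting and in 815 of 960 without 1 library. The causes were not tested.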
